A study of Homo sapiens with 9 samples.

Results

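PAFAH1B1, PAFAH1B2 and PAFAH1B3 encode the subunits of the intracellular platelet-activating factor acetylhydrolase 1B, and their mRNA was followed in VCaP cells transfected with 2 siRNAs against CDO1. These 3 genes were taken by their names from the 58735 genes of the count table, and all 3 were among the 15555 genes with enough reads to be tested. The trio was chosen by a result of these same libraries, the opposite movement of PAFAH1B2 with the 2 siRNAs, so that the PAFAH1B2 values are given as a description and without a test. VCaP is an established androgen-responsive prostate cancer line. The cells were kept in DMEM with 10% fetal bovine serum and 2 nM DHT (dihydrotestosterone, the androgen), and every group received this medium. The groups were cells given a control siRNA (siCtrl, genotype label WT), siCDO1A or siCDO1C (genotype label CDO1 knockdown for both), each with 3 biological replicates, numbered like the batches, so that replicates of the same number share a batch. CDO1, the cysteine dioxygenase that starts cysteine breakdown to taurine and sulfate, was targeted by transient transfection in a single cell line. The time at which RNA was taken for sequencing and the siRNA sequences are not stated in the sources used here.

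PAFAH1B2 and PAFAH1B3 are the catalytic alpha subunits, related serine esterases that pair with each other or with themselves and remove the acetyl group of platelet-activating factor (PAF), an ether phospholipid with signalling activity. PAFAH1B1, better known as LIS1, carries WD40 repeats, binds the catalytic dimer as its non-catalytic partner and, separately from it, regulates the microtubule motor cytoplasmic dynein. Loss of a PAFAH1B1 copy causes lissencephaly, a failure of neuronal migration, and the gene is used in dividing cells of many tissues for spindle positioning and nuclear movement. PAF itself is built from ether lipids made in peroxisomes, and is also hydrolysed by PAFAH2 inside cells and by the secreted PLA2G7.

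The 3 genes lie on different chromosomes. In the GRCh38 coordinates of the count table, PAFAH1B1 (ENSG00000007168) spans chr17:2593210-2685615 on the plus strand, PAFAH1B2 (ENSG00000168092) spans chr11:117144267-117176894 on the plus strand, and PAFAH1B3 (ENSG00000079462) spans chr19:42297033-42303546 on the minus strand. Their promoters are printed so that the start regions can be compared. No binding was measured here, and a link between these sequences and the levels was not tested. Each window runs from 250 bases before to 50 bases after the RefSeq start (GRCh38.p14), 5′ to 3′ on the strand of the gene. Capitals mark matches, on either strand, to 4 short motifs, namely CCGGAAGT (ETS), TGACGTCA (CRE), GGGCGG (GC box) and CACGTG (E-box). TATAAA was also searched.
PAFAH1B1 (chr17:2593404-2593703, plus strand): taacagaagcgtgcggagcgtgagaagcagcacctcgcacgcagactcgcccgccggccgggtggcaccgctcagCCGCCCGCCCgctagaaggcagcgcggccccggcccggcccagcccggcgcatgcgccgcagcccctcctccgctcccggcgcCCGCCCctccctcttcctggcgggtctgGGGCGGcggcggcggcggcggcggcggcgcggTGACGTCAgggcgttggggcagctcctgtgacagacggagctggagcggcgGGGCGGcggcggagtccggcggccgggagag
PAFAH1B2 (chr11:117144037-117144336, plus strand): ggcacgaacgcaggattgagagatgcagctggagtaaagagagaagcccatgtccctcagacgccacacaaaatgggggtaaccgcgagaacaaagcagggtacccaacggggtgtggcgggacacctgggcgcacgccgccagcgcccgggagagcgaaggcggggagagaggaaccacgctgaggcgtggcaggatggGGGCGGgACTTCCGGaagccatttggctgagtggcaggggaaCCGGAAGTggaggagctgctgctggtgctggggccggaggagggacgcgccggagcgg
PAFAH1B3 (chr19:42302751-42303050, minus strand): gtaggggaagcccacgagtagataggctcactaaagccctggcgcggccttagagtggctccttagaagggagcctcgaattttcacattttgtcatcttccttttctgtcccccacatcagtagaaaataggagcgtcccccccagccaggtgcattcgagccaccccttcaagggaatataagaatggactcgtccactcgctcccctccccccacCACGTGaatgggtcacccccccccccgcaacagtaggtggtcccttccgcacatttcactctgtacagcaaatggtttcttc
The 3 windows shared little of this content. The PAFAH1B1 window was the richest in G and C (79.3%, with 47 CpG), and held a CRE match starting at position -32 from the start site and 5 GC boxes, of which the first pair overlap. The PAFAH1B2 window had 66.3% G and C and 24 CpG, with ETS matches at -43 and -8 on opposite strands and a GC box just before the first of them. The first PAFAH1B3 window was the poorest (55.3%, 11 CpG) and held a single E-box at -32. A RefSeq start further downstream gives PAFAH1B3 another window, chr19:42302575-42302874, in which the same E-box stands at -208 together with a GC box. The median of all promoters was 58.7% G and C. Among 35116 RefSeq promoter windows of this length, 4.14% held the ETS letters, 1.85% the CRE, 45% the GC box, 7.26% the E-box and 11.5% TATAAA, which none of the 3 genes had.

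Library totals were between 12061295 and 16073698 counts, at which a floor of 3 counts corresponds to between 0.186 and 0.248 CPM, the count scaled to a library of 1000000 counts after TMM normalization; the 3 genes had at least 609 counts in every library, far over this floor. CDO1 fell from 13.98 ± 0.277 CPM (SD, n = 3) in siCtrl to 2.505 ± 0.675 with siCDO1A and 1.689 ± 0.976 with siCDO1C. All 5 VCaP markers read (KLK3, TMPRSS2, ERG, KRT8 and KRT18) were present. Their summed level was 896 to 943 CPM in siCtrl, 860 to 895 with siCDO1A and 871 to 956 with siCDO1C. Markers of other cells were low, with sums of at most 3.42 CPM for 3 basal epithelial, 4.76 for 3 fibroblast, 0.413 for 3 immune and 2.67 for 3 endothelial genes, and COL1A2 and CDH5 had no count in any library. The basal sum was 1.17 to 1.51 CPM in siCtrl, 2.31 to 3.42 with siCDO1A and 1.3 to 2.74 with siCDO1C, the fibroblast sum was 1.71 to 3.11, 3.49 to 4.76 and 2.67 to 3.8 in the same order, and the part of these shifts in the results was not tested. The siCDO1C replicate 2 library stood apart, correlating at 0.9869 and 0.9856 with the other siCDO1C libraries, against 0.9915 between those (Pearson r of log2 CPM over the genes tested). In bulk RNA, fewer cells of a kind and less RNA per cell cannot be told apart.

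PAFAH1B1, the LIS1 gene, was lower with siCDO1A and not detectably changed with siCDO1C. It had 272.9, 270.9 and 263.2 CPM in siCtrl replicates 1 to 3, 207.9, 224.3 and 223.9 with siCDO1A, and 247.5, 251.8 and 263.3 with siCDO1C. All siCDO1A libraries were under all siCtrl libraries, whereas siCDO1C replicate 3 reached the level of siCtrl replicate 3. The mean fell from 269 ± 5.12 CPM (SD, n = 3) to 218.7 ± 9.37 with siCDO1A, a log2 fold change of -0.30 (SE 0.0532, 95% interval -0.41 to -0.19, adjusted p = 0.000642 in edgeR's quasi-likelihood test). This is the direction in which 7.48% of all genes tested were called (adjusted p of at most 0.05) in this comparison, while 7.37% were called higher. Within batches 1 to 3 the PAFAH1B1 log2 difference was -0.393, -0.273 and -0.233, and with the batch as a block the fall stayed called (edgeR adjusted p = 0.00999). With siCDO1C the mean was 254.2 ± 8.16 CPM, and the log2 fold change of -0.09 (SE 0.0677, 95% interval -0.23 to 0.055) did not pass the test (edgeR adjusted p = 0.537); there, 2.5% of genes were called lower and 2.27% higher.

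The PAFAH1B1 levels with the 2 siRNAs were also compared directly. All siCDO1C libraries were over all siCDO1A libraries, and the log2 difference was 0.21 (SE 0.078, 95% interval 0.048 to 0.38), but it did not pass the adjustment over all genes (edgeR adjusted p = 0.446). In this direct comparison 0.244% of genes were called with the higher level in siCDO1C and 0.199% with the lower. A difference between the siRNAs in PAFAH1B1 was thus not shown, although the fall was called with siCDO1A alone.

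PAFAH1B2, a catalytic subunit gene, showed the pattern for which the trio was selected. It had 142.9, 147.9 and 138.9 CPM in siCtrl replicates 1 to 3, 110.1, 107.9 and 101.7 with siCDO1A, and 175.8, 182.4 and 176.3 with siCDO1C. The 3 groups did not overlap, with siCDO1A lowest, siCtrl between and siCDO1C highest. The mean of 143.2 ± 4.54 CPM (SD, n = 3) in siCtrl stood against 106.6 ± 4.34 with siCDO1A, a change of -25.6%, and 178.2 ± 3.71 with siCDO1C, a change of 23.8%. On the log2 scale these differences were -0.43 (SE 0.0591) and 0.31 (SE 0.0684), a description, because the gene was chosen by these values. Both comparisons share the siCtrl libraries. Between the siRNAs, PAFAH1B2 was 1.67-fold higher with siCDO1C (log2 difference 0.74, SE 0.0784). Within batches 1 to 3 the log2 differences of PAFAH1B2 from siCtrl were -0.376, -0.455 and -0.449 with siCDO1A, and 0.298, 0.302 and 0.344 with siCDO1C.

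**Figure D1:**
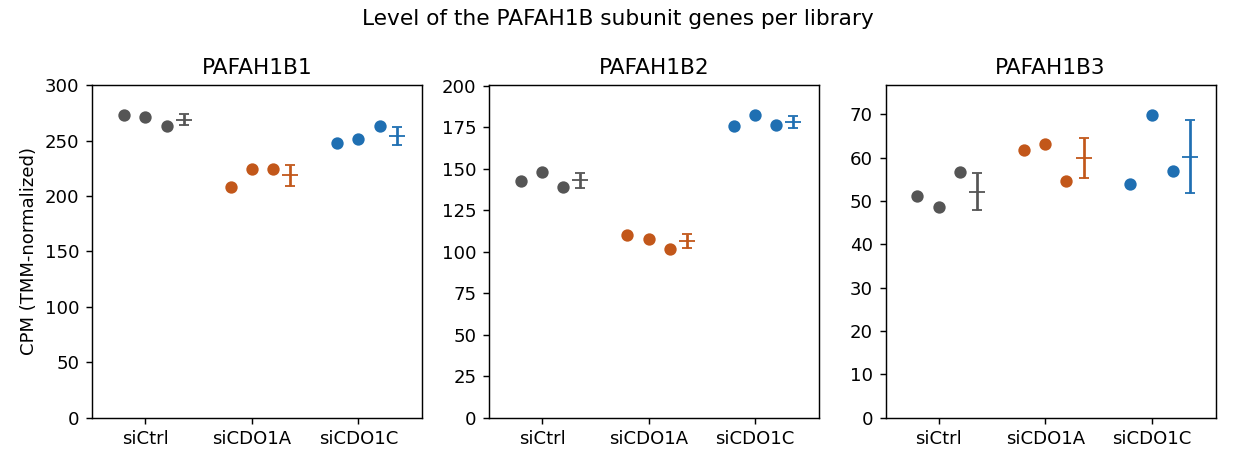
CPM after TMM normalization (vertical axis, from 0) of each gene in the 9 libraries; points are replicates 1 to 3 from left to right, and the bar beside them is the mean ± SD. PAFAH1B2 separates into 3 levels (101.7 to 110.1, 138.9 to 147.9 and 175.8 to 182.4 CPM), PAFAH1B1 is lower with siCDO1A (207.9 to 224.3 CPM), and the PAFAH1B3 groups overlap.

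To place this pattern, all genes tested were sorted by whether their groups overlapped. Of 15555 genes, 26 (0.167%) had every siCDO1A library under and every siCDO1C library over every siCtrl library, PAFAH1B2 among them, and 19 (0.122%) had the reverse order. PAFAH1B2 took place 3 of these 26 by the log2 difference between the siRNAs. This is a description, since PAFAH1B2 was chosen by the same values.

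PAFAH1B3, the other catalytic subunit gene, did not follow PAFAH1B2. It had 51.2, 48.49 and 56.77 CPM in siCtrl replicates 1 to 3, 61.77, 63.16 and 54.59 with siCDO1A, and 53.99, 69.76 and 56.93 with siCDO1C. The groups overlapped in every comparison, with siCDO1A replicate 3 under siCtrl replicate 3 and the highest value in siCDO1C replicate 2, the library that stood apart. The mean was 52.15 ± 4.22 CPM (SD, n = 3) in siCtrl, 59.84 ± 4.6 with siCDO1A and 60.23 ± 8.39 with siCDO1C. The log2 fold changes of 0.19 with siCDO1A (SE 0.0795, 95% interval 0.029 to 0.36, edgeR adjusted p = 0.109) and 0.20 with siCDO1C (SE 0.101, 95% interval -0.017 to 0.41, edgeR adjusted p = 0.317) did not pass the test. Within batches 1 to 3 the PAFAH1B3 log2 difference was 0.271, 0.381 and -0.0563 with siCDO1A and 0.0768, 0.525 and 0.00411 with siCDO1C, so that batch 3 showed no rise with siCDO1A. Without siCDO1A replicate 3 the PAFAH1B3 value with siCDO1A was 0.26 and was called (edgeR adjusted p = 0.00986). The siRNAs differed by 0.0047 on the log2 scale for PAFAH1B3 (95% interval -0.21 to 0.22, edgeR adjusted p = 1), an interval that still allows a difference of some size in either direction; the estimate was -0.11 without siCDO1C replicate 2 and -0.043 without siCDO1A replicate 3.

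**Figure D2:**
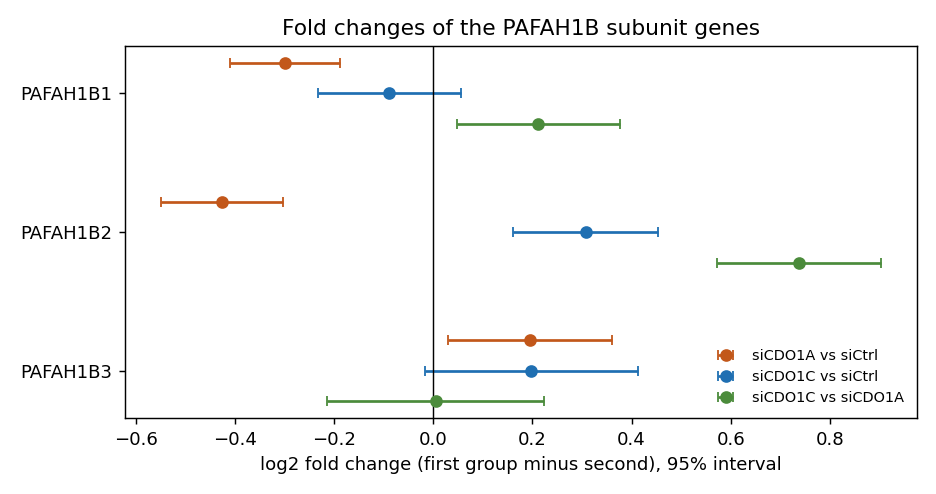
Log2 fold change (horizontal axis, first group minus second) of each gene in the 3 comparisons, with 95% intervals from the edgeR fit of the 6 libraries compared. The PAFAH1B2 points lie at -0.43 and 0.31 against siCtrl, while those of PAFAH1B3 lie at 0.19 and 0.20 and that of PAFAH1B1 at -0.30 with siCDO1A. The PAFAH1B2 intervals take no account of the choice of this gene by the same values and are not a test.

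Levels of different genes were compared per length, as FPKM, the count in a library of 1000000 divided by the length of the gene model in kilobases. In siCtrl, PAFAH1B3 had 36.87 ± 2.98 FPKM (SD, n = 3), PAFAH1B1 33.21 ± 0.71 and PAFAH1B2 20.23 ± 0.627. The order PAFAH1B3, PAFAH1B1, PAFAH1B2 held in 9 of 9 libraries. The gap between the upper pair was small in siCtrl, where the lowest PAFAH1B3 value was 34.18 FPKM and the highest PAFAH1B1 value 33.84, while PAFAH1B2 was well under both. The lengths used, 8127 bases for PAFAH1B1, 7104 for PAFAH1B2 and 1419 for PAFAH1B3, are those of the count table, and where cells express shorter transcripts than the gene model, FPKM understates the level.

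The balance between the subunit transcripts is described per library. PAFAH1B2 made up 35.8%, 37.9% and 32.8% of the summed FPKM of the catalytic subunits in siCtrl replicates 1 to 3, 26.3%, 25.4% and 27.1% with siCDO1A, and 39.4%, 34.3% and 38.2% with siCDO1C. The siCDO1A libraries were under all others, and siCDO1C and siCtrl overlapped. The sum of both catalytic genes was 57.1 ± 2.35 FPKM (SD, n = 3) in siCtrl, 56.7 ± 3.69 with siCDO1A and 67.5 ± 5.96 with siCDO1C, so that with siCDO1A the lower PAFAH1B2 stood beside a PAFAH1B3 level of 41.79 ± 3.14 FPKM against 36.87 in siCtrl. These shares contain PAFAH1B2 and carry no test.

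The ratio of PAFAH1B1 to PAFAH1B3 was 0.931, 0.976 and 0.81 in siCtrl replicates 1 to 3, 0.588, 0.62 and 0.716 with siCDO1A, and 0.8, 0.63 and 0.807 with siCDO1C. The rule that chose the trio did not use this ratio, though earlier results of these data were known. Every knockdown library was under every siCtrl library, by a narrow margin for siCDO1C. How often the ratios of other gene pairs separate in this way was not counted. The mean log2 ratio was -0.148 in siCtrl, -0.646 with siCDO1A and -0.432 with siCDO1C. In the two-sided exact permutation test, p was 0.1 for each siRNA against siCtrl, the smallest value that 3 against 3 libraries allow, and 0.2 between the siRNAs. This test could therefore not reach the threshold at this size.

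**Figure D3:**
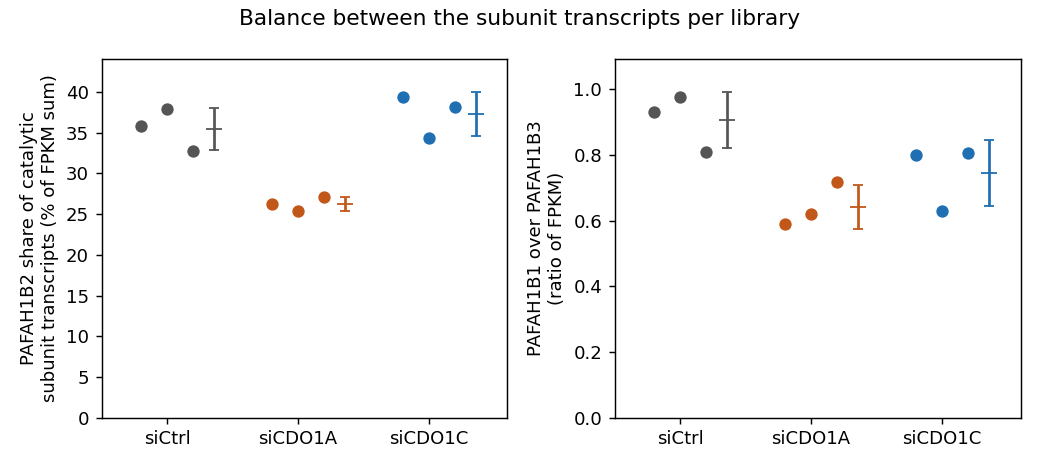
Left, PAFAH1B2 as a percent of the summed FPKM of PAFAH1B2 and PAFAH1B3; right, PAFAH1B1 over PAFAH1B3 as a ratio of FPKM; points are replicates 1 to 3 from left to right and the bar is the mean ± SD. The PAFAH1B2 share is 25.4% to 27.1% with siCDO1A and 32.8% or more elsewhere, and the ratio on the right is highest in siCtrl (0.81 to 0.976).

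Genes with the most similar course over the 9 libraries were listed for each subunit gene, 5 apiece, by Pearson's r of log2 CPM. For PAFAH1B2 these were KIAA1191 (r = 0.981), GLUL (0.969), HACD3 (0.965), ZDHHC24 (0.963) and ANLN (0.961), and all 5 had the order siCDO1A, siCtrl, siCDO1C without overlap. This order was favoured by the pick, made by r over the same libraries, and 26 of 15555 genes (0.167%) had it. The differences of these 5 genes were smaller than those of PAFAH1B2. ANLN, the anillin gene of the cytokinetic ring, had 75.45 ± 2.21 CPM (SD, n = 3) in siCtrl, 64.01 ± 1.98 with siCDO1A and 84.91 ± 3.93 with siCDO1C. GLUL, glutamine synthetase, had 211.3 ± 2.95, 200.2 ± 4.95 and 228.2 ± 0.914 CPM in the same order. KIAA1191, GLUL, HACD3 and ZDHHC24 were called in no comparison, and ANLN was not called with siCDO1C. For PAFAH1B1 the list was EVI5 (0.987), CHMP3 (0.976), TLK2 (0.976), PELI2 (0.976) and SIRT1 (0.973). EVI5 had 28.4 ± 1.48 CPM in siCtrl, 16.39 ± 1.81 with siCDO1A and 24.18 ± 1.66 with siCDO1C. For PAFAH1B3 it was MRPL27 (0.976), CKB (0.975), NPDC1 (0.972), MED30 (0.968) and SIVA1 (0.958). CKB, the brain-type creatine kinase, had 542.1 ± 37.7 CPM in siCtrl, 640.8 ± 57.3 with siCDO1A and 644.8 ± 88.9 with siCDO1C. The coefficients are the highest among all 15555 genes, computed on the same 9 libraries, and describe these libraries alone.

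The pathway around the subunits was described with 6 lists of 77 genes, of which 72 were tested. DYNLRB2, DCX, CRACR2A, PLA2G4A and AGMO had at most 12 counts in a library. The lists were chosen with earlier results of these data known, so that their shares are a description. With siCDO1A, 7 of 72 rose (9.72%) and 14 fell (19.4%), beside 7.37% and 7.48% of all genes, with a median log2 fold change of -0.046 over the lists and 0.010 over all genes. With siCDO1C, 4 rose (5.56%) and 3 fell (4.17%), beside 2.27% and 2.5%, with a median of -0.014 over the lists and -0.00023 over all genes. These 7 were also called, in the same direction, with siCDO1A, in comparisons that share the siCtrl libraries. Between the siRNAs edgeR called 0 of 72, with 3 under an unadjusted p of 0.05, and DESeq2 called 0. With the batch as a block, the siCDO1A count was 13 in place of 21 (4 higher, 5.56%, and 9 lower, 12.5%, beside 4.19% and 4.54% of all genes), and the siCDO1C count was 6 in place of 7. The counts also depended on single libraries. With siCDO1A, 11 of the 21 calls held whichever library was left out, and the count was 13 without siCtrl replicate 1 or siCDO1A replicate 2. With siCDO1C, 1 of the 7 calls held throughout (FAR1), and the count was 16 without siCDO1C replicate 2, 4 without siCDO1C replicate 3, 2 without siCtrl replicate 1 or siCDO1C replicate 1, and 1 without siCtrl replicate 2 or 3. Between the siRNAs, BICD1 alone was called without siCDO1C replicate 2.

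Among genes listed for PAF turnover and the PAF receptor, 1 rose and 2 fell with siCDO1A, and 1 rose and 1 fell with siCDO1C, of 11 tested. A single call in 11 is 9.09%, near the 7.37% of all genes that rose with siCDO1A. The 2 falls with siCDO1A are 18.2%, beside 7.48% of all genes. With siCDO1C 2.27% of all genes rose and 2.5% fell. PAFAH2, the other intracellular PAF acetylhydrolase, fell with both. It had 17.51 to 19.87 CPM in siCtrl, 11.57 to 13.48 with siCDO1A and 13.64 to 13.94 with siCDO1C, without overlap between siCtrl and either siRNA. Its log2 fold changes were -0.58 (SE 0.109, edgeR adjusted p = 0.00111) and -0.46 (SE 0.11, edgeR adjusted p = 0.026). The PAFAH2 call with siCDO1C held in 1 of the 6 fits that left out a library. Thus with siCDO1C, PAFAH2 was lower while PAFAH1B2, chosen by its own values, was higher. LPCAT4, a lysophospholipid acyltransferase, rose from 12.82 to 13.17 CPM in siCtrl to between 18.54 and 19.5 with siCDO1A (log2 fold change 0.56, SE 0.102, edgeR adjusted p = 0.000805) and to between 16.36 and 20.14 with siCDO1C (0.51, SE 0.118, edgeR adjusted p = 0.0217). Its siCDO1C call also held in 1 of these 6 fits. LPCAT3, another lysophospholipid acyltransferase, fell with siCDO1A (-0.34, SE 0.0771, edgeR adjusted p = 0.00437) and was at -0.22 with siCDO1C (edgeR adjusted p = 0.298). LPCAT1, LPCAT2, PLA2G7 and the PAF receptor gene PTAFR were tested and called with neither siRNA.

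Of 11 tested genes of ether lipid synthesis and breakdown, 2 rose and 1 fell with siCDO1A, and 2 rose and 0 fell with siCDO1C (3 with an unadjusted p under 0.05, 2 called by DESeq2). Of all genes, 7.37% rose and 7.48% fell with siCDO1A, and 2.27% and 2.5% with siCDO1C, so that the single fall with siCDO1A (9.09%) is near the share of all genes. FAR1, the peroxisomal reductase that supplies the fatty alcohol of ether lipids, had 100.3 to 115.8 CPM in siCtrl, 145.3 to 164.8 with siCDO1A and 141.7 to 166.1 with siCDO1C. Its log2 fold changes were 0.48 (SE 0.0671, edgeR adjusted p = 4.18e-05) and 0.49 (SE 0.0816, edgeR adjusted p = 0.00286), and both calls held whichever library was left out. SELENOI, an ethanolamine phosphotransferase, rose by 0.31 and 0.39 on the log2 scale (edgeR adjusted p = 0.00268 and 0.00956). The SELENOI call with siCDO1C held in 4 of the 6 fits that left out a library. TMEM86A, a lysoplasmalogenase, fell with siCDO1A (-0.45, SE 0.124, edgeR adjusted p = 0.0164) and was at -0.40 with siCDO1C (edgeR adjusted p = 0.0954). The TMEM86A call with siCDO1A also held in 4 of the 6 fits.

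**Figure D4:**
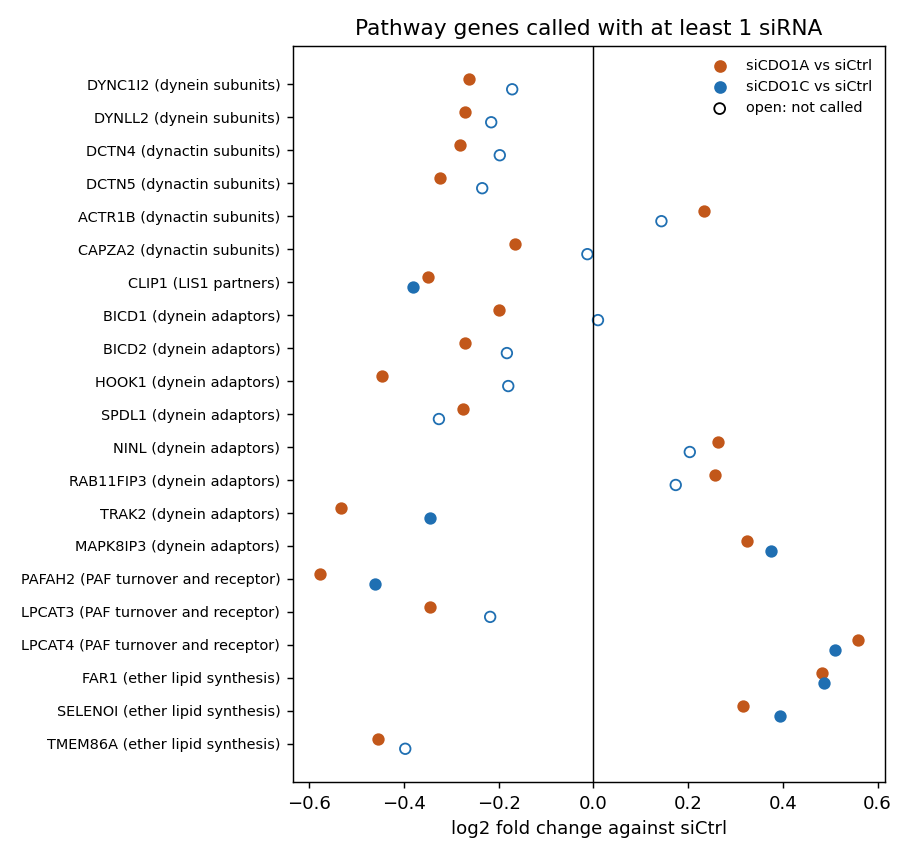
Log2 fold change against siCtrl (horizontal axis) of the 21 pathway genes called with at least 1 siRNA; orange is siCDO1A, blue is siCDO1C, filled points were called and open ones were not. With siCDO1A 14 points lie at negative values and 7 at positive ones, and the 7 filled siCDO1C points lie on the same side as their siCDO1A partners.

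Next come the genes of the motor that LIS1 regulates. Of 10 dynein subunit genes 0 rose and 2 fell with siCDO1A, namely DYNC1I2, an intermediate chain (log2 fold change -0.26, edgeR adjusted p = 0.00755), and DYNLL2, a light chain (-0.27, edgeR adjusted p = 0.00109). The DYNC1I2 call was lost with the batch as a block (edgeR adjusted p = 0.0509) and held in 5 of the 6 fits that left out a library. Of 12 genes of dynactin, the cofactor that links dynein to cargo, 3 fell and 1 rose. DCTN4 (-0.28), DCTN5 (-0.32) and CAPZA2 (-0.17), subunits of its pointed-end and capping parts, fell, and ACTR1B (0.23), an actin-related filament subunit, rose; with the block CAPZA2 and ACTR1B were no longer called (edgeR adjusted p = 0.169 and 0.0747). Without the block, the CAPZA2 and ACTR1B calls each held in 2 of the 6 fits that left out a library. Over all genes tested, 7.37% rose and 7.48% fell with siCDO1A, and 2.27% and 2.5% with siCDO1C. With siCDO1C edgeR called none of these 22 genes, while 5 had an unadjusted p under 0.05 and DESeq2 called 0. Of 13 LIS1 partners, CLIP1, a microtubule plus-end protein, fell with both siRNAs (-0.35 and -0.38, edgeR adjusted p = 0.00128 and 0.0376) and the other 12 were not called with either. The CLIP1 call with siCDO1C held in 2 of the 6 fits that left out a library.

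Of 15 dynein adaptor genes, 3 rose (20%) and 5 fell (33.3%) with siCDO1A, beside 7.37% and 7.48% of all genes. With siCDO1C 1 rose and 1 fell (6.67% each, a single gene), beside 2.27% and 2.5% of all genes. With the batch as a block, 1 rose (6.67%) and 2 fell (13.3%) with siCDO1A, beside 4.19% and 4.54% of all genes. With the block and siCDO1C, 0 rose and 1 fell (6.67%), beside 1.92% and 2.15% of all genes. TRAK2, a mitochondrial transport adaptor, had 66.08 to 70.78 CPM in siCtrl, 45.94 to 50.3 with siCDO1A and 50.67 to 57.08 with siCDO1C. It fell by 0.53 and 0.35 on the log2 scale (edgeR adjusted p = 2.86e-05 and 0.024). The TRAK2 call with siCDO1C held in 1 of the 6 fits that left out a library. HOOK1, an endosomal adaptor, fell by 0.45 with siCDO1A (edgeR adjusted p = 7.66e-05) and was at -0.18 with siCDO1C (edgeR adjusted p = 0.201). BICD1, BICD2 and the kinetochore adaptor SPDL1 had log2 fold changes of -0.20, -0.27 and -0.27 with siCDO1A and 0.0097, -0.18 and -0.33 with siCDO1C. NINL and RAB11FIP3 had 0.26 each with siCDO1A, and 0.20 and 0.17 with siCDO1C. These 5 genes were called with siCDO1A and not with siCDO1C, but with all libraries no difference between the siRNAs was called for any of them, and with the block all 5 lost the siCDO1A call (edgeR adjusted p = 0.0623 to 0.156). The SPDL1 and NINL calls each held in 1 of the 6 fits that left out a library, the BICD1 and RAB11FIP3 calls in 2 and the BICD2 call in 3. MAPK8IP3, an adaptor of axonal transport, rose with both siRNAs (0.33 and 0.38, edgeR adjusted p = 0.0166 and 0.049), and with the block its siCDO1C call was lost (edgeR adjusted p = 0.052). Without the block, that call held in 1 of the 6 fits that left out a library, and the MAPK8IP3 call with siCDO1A in 3.

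The nearest expressed genes around each subunit gene, 2 on either side, were also read. For scale, 7.37% of all genes tested rose and 7.48% fell with siCDO1A, and 2.27% and 2.5% with siCDO1C. PAFAH1B1 lies between METTL16 and CLUH. Both were called higher with siCDO1A, and METTL16 also with siCDO1C, where PAFAH1B1 was not called. METTL16, an RNA methyltransferase gene 81319 bases away, rose with siCDO1A (log2 fold change 0.57, edgeR adjusted p = 3.35e-05) and siCDO1C (0.48, edgeR adjusted p = 0.00657). CLUH, 3771 bases away, rose with siCDO1A (0.26, edgeR adjusted p = 0.00319) and was at 0.13 with siCDO1C (edgeR adjusted p = 0.408). SIDT2, a lysosomal membrane protein gene that begins 1839 bases after PAFAH1B2 on the same strand, fell with siCDO1A (-0.36, edgeR adjusted p = 0.00496) and, unlike PAFAH1B2, had a negative estimate with siCDO1C as well (-0.15, edgeR adjusted p = 0.477). SIK3, on the other side of PAFAH1B2, was at 0.065 and 0.087 (edgeR adjusted p = 0.708 and 0.821). Next to PAFAH1B3, CIC was at 0.018 and -0.010 (edgeR adjusted p = 0.902 and 0.97), while TMEM145 rose with siCDO1A (0.41, edgeR adjusted p = 0.00563) and was at 0.32 with siCDO1C (edgeR adjusted p = 0.103). The other 6 neighbours were not called with either siRNA. MNT was at -0.0085 and 0.025, AC005696.4 at 0.11 and 0.065, AP000936.3 at 0.39 and 0.43, TAGLN at 0.44 and 0.28, ERF at 0.011 and -0.14 and PRR19 at -0.19 and 0.16. AP000936.3 was barely expressed, with a mean of 0.6473 CPM in siCtrl (SE of its estimates 0.415 and 0.448). TAGLN (2.836 CPM in siCtrl, SE 0.202 and 0.211) and PRR19 (3.692 CPM in siCtrl, SE 0.213 and 0.194) were also low.

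Overlapping or copied genes took few counts. PRR19, which overlaps PAFAH1B3 on the opposite strand, had 41 to 62 counts in a library, and the 4 genes that overlap PAFAH1B1 had at most 5 counts each. No listed gene overlaps PAFAH1B2. The pseudogene and antisense rows named for or related to the subunit genes had 0 counts in all 9 libraries. How reads that map to several places were handled is not given in the sources used here.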

How the data were processed

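RNA of VCaP cells was measured by RNA-seq in 9 libraries. Per the paper, the authors made directional poly(A) libraries, sequenced both fragment ends and used featureCounts for gene-level read counting; the submitters' processing notes name CASAVA, HISAT2 2.0.5 and hg38. The counter's options for strand and multi-mapped reads are not given in the sources used here. The deposited values are raw integer counts, 1 column per library. Of its columns, 3 belong to no sample here and were left out of every step. Gene coordinates overlapped RefSeq GRCh38 for 99.9% of 36147 genes matched by symbol.

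Counts were filtered with filterByExpr (minimum count 10), scaled by TMM (factors 0.9898 to 1.01) and tested with the quasi-likelihood test of edgeR 4.0.16 in R 4.3.3 (limma 3.58.1), each comparison on its 6 libraries, with Benjamini-Hochberg adjustment over 15555 genes and a threshold of 0.05. The test was first run on simulated counts. CPM used the TMM factors; FPKM used library totals and the table's gene lengths; likeness used log2 CPM with a prior count of 2. Alternatives were DESeq2 1.42.0, its size factors (RLE) in edgeR, no filter, 1 fit of all libraries, a replicate block and leaving out each library. Replicate numbers pair the libraries because the labels give them as batches, although libraries of the same number did not deviate together (correlations of -0.37 to 0.372 over 11337 genes, own number best in 4 of 18 comparisons). Floors cover counting error only. Library totals were 12061295 to 16073698. The named genes were the 3 members, CDO1, all genes of the 6 lists called with either siRNA, 5 genes most like each member, and 2 tested neighbours on each side. The members and lists were chosen with earlier results of these data known. Some of the cell line's marker genes are not reported here. Promoters are from RefSeq (GRCh38.p14), with entries for 3 of 3 members.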

Additional observations from a re-analysis of the deposited data

Results flagged for a closer look

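PAFAH1B2 moved in opposite directions with the 2 siRNAs. Every siCDO1A library was under and every siCDO1C library over all siCtrl libraries, and the log2 difference between siCDO1C and siCDO1A was 0.737. This difference was not tested, since the gene was chosen by it.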

How the results depend on the processing

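The PAFAH1B1 fall with siCDO1A kept its direction and its call under every alternative run, with log2 fold changes of -0.32 to -0.26 when single libraries were left out (edgeR adjusted p = 4.52e-06 to 0.00933) and -0.30 to -0.29 otherwise. PAFAH1B2 was at -0.45 to -0.39 with siCDO1A, 0.28 to 0.33 with siCDO1C and 0.72 to 0.76 between the siRNAs when single libraries were left out. Leaving out a library moved PAFAH1B3 with siCDO1A between 0.15 and 0.26 (edgeR adjusted p = 0.00986 to 0.364; called at 0.257 without siCDO1A replicate 3), and between the siRNAs from -0.11 to 0.078, reversed to -0.043 without siCDO1A replicate 3 and to -0.113 without siCDO1C replicate 2. Pathway calls ranged from 13 to 25 with siCDO1A (21 with all libraries), 1 to 16 with siCDO1C (7) and 0 to 1 between the siRNAs (0). The cause was not tested.

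With the replicate block (the labels' batch), pathway calls with siCDO1A were 13 in place of 21, calls over all genes were 1358 in place of 2309 with siCDO1A and 121 in place of 69 between the siRNAs, and no call of PAFAH1B1, PAFAH1B3 or their neighbours changed. Calls over all genes were also 1369 with siCDO1A in 1 fit of all 9 libraries, and between the siRNAs 104 by DESeq2, 147 without a filter and 128 in 1 fit of all 9. Over all genes, leaving out a library gave 1292 to 3454 calls with siCDO1A and 263 to 2068 with siCDO1C (742 with all libraries) and 18 to 447 between them, the highest without siCDO1A replicate 3 for the first and without siCDO1C replicate 2 for the others. With 3 libraries a group, changes as small as that of PAFAH1B3 lie near the limit of these data.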
